A study of Homo sapiens with 30 samples.

Results

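A pair of siRNAs against the same gene were set against each other directly: siBRD8-6 and siBRD8-36, each transfected into the human colorectal cancer cell lines HCT116 and SW480. All 3 libraries of each siRNA in each line were taken by their labels, which gave 12 libraries of the 30 in the series. The libraries were made from total RNA 48 h after transfection of 10 nM siRNA, and every group of the series received an siRNA, the controls included. The groups used, with 3 libraries each per line, were HCT116 and SW480 with siBRD8-6, the same lines with siBRD8-36, the lines with siTIP60-2 or siTIP60-11, and the lines with control siRNA (siControl). The comparison asks how much of the response to BRD8 siRNA depends on which siRNA was used. Differences found in both lines with one sign are called recurrent here and belong to the pair of siRNAs. Labels name the libraries of a group as replicates without saying that they came from separate cultures, so p-values measure the spread between these libraries, which may be technical.

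BRD8 is a bromodomain subunit of the TIP60/p400 complex, a chromatin-remodelling and histone acetyltransferase complex whose catalytic subunit TIP60 is encoded by KAT5. An siRNA is a short duplex of which one strand, the guide, is loaded into an Argonaute protein and directs cleavage of a fully paired mRNA. A guide can also lower other mRNAs through partial pairing, above all between its seed, near the 5′ end, and 3′ UTRs, which is why studies use more than one siRNA per gene. The sequences of the BRD8 siRNAs were not used here.

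A pair of stretches of the BRD8 mRNA and 11 short stretches of 3′ UTRs are shown first because they hold 3 words of 7 bases that ranked among the first 3 of their direction in both lines in a scan of 3′ UTRs, described further down. Of the recurrent genes with a 3′ UTR, 18.3% of the higher ones held the first word and 26.5% of the lower ones held one or both of the other words, so the stretches stand for a part of these genes. The 3′ UTRs were scanned on the mRNA strand only, while the BRD8 transcript was searched for each word and for its reverse complement. The word GTCTTAC scored first in both lines among words of the genes higher with siBRD8-6. Among words of the genes lower with siBRD8-6, CAGCATA scored first in HCT116 and AGCATAA, which shares all but its last letter with it, scored first in SW480. A further word, second in both lines and chosen after its values were seen, was CCATCAT. Where the end of one word meets the start of another, they share at most 1 letter. All sequences are from GENCODE release 29 transcripts on GRCh38, 5′ to 3′, with the word in capitals. Upstream of the 3′ UTR of the BRD8 transcript ENST00000230901.9, on the minus strand, GTCTTAC occurred once, within chr5:138165886-138165907. Within chr5:138163196-138163217 the word CAGCATA occurred 3 bases after ATGATGG, the reverse complement of the third word, the pair spanning 17 bases. This pair was found by looking for ATGATGG shortly before each CAGCATA, after the words were known. Further copies of the second and the third word, and the reverse complement of the second, lay elsewhere in this transcript.
BRD8, GTCTTAC: tggatattgctgtGTCTTACac
BRD8, ATGATGG and CAGCATA: gtgATGATGGcttCAGCATAca
A match is a description and shows neither a binding site nor a cause.

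Stretches from the 3′ UTRs of the genes with the largest recurrent differences that hold each word were as follows, and MCM2 and SLC7A5 were added after their values were seen. GTCTTAC was shown for KCTD3 (chr1:215620984-215621009, plus strand), TSPYL1 (chr6:116277053-116277078, minus), SNAPIN (chr1:153661431-153661456, plus), SLC7A5 (chr16:87830313-87830338, minus) and MCM2 (chr3:127621975-127622000, plus). CAGCATA was shown for PRRG4 (chr11:32855222-32855247, plus), CR2 (chr1:207489468-207489493, plus) and SYTL2 (chr11:85694415-85694440, minus). CCATCAT was shown for RFK (chr9:76387216-76387241, minus), NRP1 (chr10:33177718-33177743, minus) and SYTL2 again (chr11:85694853-85694878, minus).
KCTD3: tgcctgagacttGTCTTACaatgtta
TSPYL1: ggaagaacaacaGTCTTACttgcctg
SNAPIN: ttgaagcacttcGTCTTACccattta
SLC7A5: ttttgtgctaacGTCTTACtaattta
MCM2: ccttgccagtgtGTCTTACttggttg
PRRG4: ttaagaatgtagCAGCATAtaagcta
CR2: tctttttgaaatCAGCATActcaatg
SYTL2, CAGCATA: actatatgaaagCAGCATAagagtag
RFK: attaaattaagcCCATCATatcatag
NRP1: tcatgttttgtaCCATCATaagattt
SYTL2, CCATCAT: tgttcttgtttgCCATCATgtgtttc
CR2 encodes complement receptor 2, and its siBRD8-6 over siBRD8-36 log2 fold change was −2.48 in HCT116 and −3.55 in SW480. CR2 did not reach the mean count of 50 in each line that was asked of the genes taken by rank, so its folds rest on few counts. The values of the other genes shown follow below.

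Depth was even between the siRNAs. Counts summed over genes (M, mega) were 16.7 to 16.9 M with siBRD8-6, 14.8 to 18.6 M with siBRD8-36 and 13.4 to 17.8 M with control siRNA in HCT116. In SW480 they were 8.21 to 11.7 M with siBRD8-6, 8.76 to 10.0 M with siBRD8-36 and 7.07 to 7.69 M with control. The epithelial genes EPCAM, KRT8, KRT18 and KRT19 were expressed in both lines, while VIL1 (villin) had at most 6 counts in any HCT116 library of the BRD8 siRNA and control groups. Of 8 fibroblast markers 2 passed the filter on low counts in each line (COL1A1 and PDGFRB), and their list summed to 30.1 to 37.0 counts-per-million (CPM) with siBRD8-6, 56.7 to 70.1 with siBRD8-36 and 19.3 to 21.7 with control in HCT116. In SW480 the sums were 14.6 to 17.2 CPM with siBRD8-6, 5.28 to 6.54 CPM with siBRD8-36 and 8.20 to 8.84 CPM with control. Of 8 leukocyte markers 2 passed in HCT116 (CD68 and LYZ) and 1 in SW480 (CD68), and the list summed to 3.70 to 4.78 CPM with siBRD8-6, 8.26 to 10.7 CPM with siBRD8-36 and 6.21 to 8.60 CPM with control in HCT116. Ribosomal protein mRNAs took 7.06% of counts in HCT116 control replicate 2, apart from the other HCT116 controls, and 5.39% in SW480 siBRD8-36 replicate 3, apart from the other 2 of its group.

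BRD8 mRNA was reduced by both siRNAs in both lines, and in HCT116 less by siBRD8-6 than by siBRD8-36. In HCT116 BRD8 (chr5:138139766-138178986, minus strand) stood at 8.19, 9.18 and 8.84 CPM with siBRD8-6, 5.50, 5.85 and 6.50 CPM with siBRD8-36 and 45.2, 38.5 and 42.1 CPM with control siRNA. That left 20.8% of the control mean with siBRD8-6 and 14.2% with siBRD8-36. The siRNA difference in HCT116 was 0.55 ± 0.113 (log2 fold change ± SE, edgeR quasi-likelihood test, adjusted p = 0.000376), with groups that did not overlap. In SW480 the levels were 12.3, 13.9 and 14.1 CPM with siBRD8-6, 12.2, 11.5 and 11.0 CPM with siBRD8-36 and 59.2, 51.3 and 53.5 CPM with control, which left 24.5% of control with siBRD8-6 and 21.2% with siBRD8-36. The SW480 difference of 0.22 ± 0.113 did not pass the test (adjusted p = 0.107), and its sign was negative (−0.11) when TPM values were tested with limma, where the HCT116 call was also lost, with BRD8 at 0.34 (adjusted p = 0.0907). The difference between the lines was 0.37 (adjusted p = 0.071). How much of what follows is tied to the unequal BRD8 levels was not tested.

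KAT5, which encodes the TIP60 acetyltransferase, was higher with siBRD8-6 in both lines. KAT5 (chr11:65711996-65719604, plus strand) had 55.1, 51.3 and 54.1 CPM with siBRD8-6, 37.2, 40.3 and 39.6 CPM with siBRD8-36 and 48.2, 46.7 and 50.4 CPM with control in HCT116. In SW480 it had 39.5, 41.8 and 43.2 CPM with siBRD8-6, 29.2, 29.1 and 30.7 CPM with siBRD8-36 and 38.0, 41.6 and 39.0 CPM with control. The log2 differences were 0.46 (SE 0.0552, adjusted p = 9.24e-07) and 0.49 (SE 0.0842, adjusted p = 1.89e-05), and the SW480 call was lost with limma on TPM (adjusted p = 0.115). The siBRD8-6 libraries lay near control and the siBRD8-36 libraries below it. None of the 3 words occurred in the KAT5 3′ UTR. Of the other subunits of the complex, YEATS4 (0.82 and 0.93), EPC1 (0.57 and 0.64) and VPS72 (0.32 and 0.18) were higher in HCT116 and SW480, while MBTD1 (−0.73 and −0.76) and EP400 (−0.26 and −0.48) were lower. The SW480 call of EPC1 was lost with limma on TPM (0.30, adjusted p = 0.134).

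**Figure D1:**
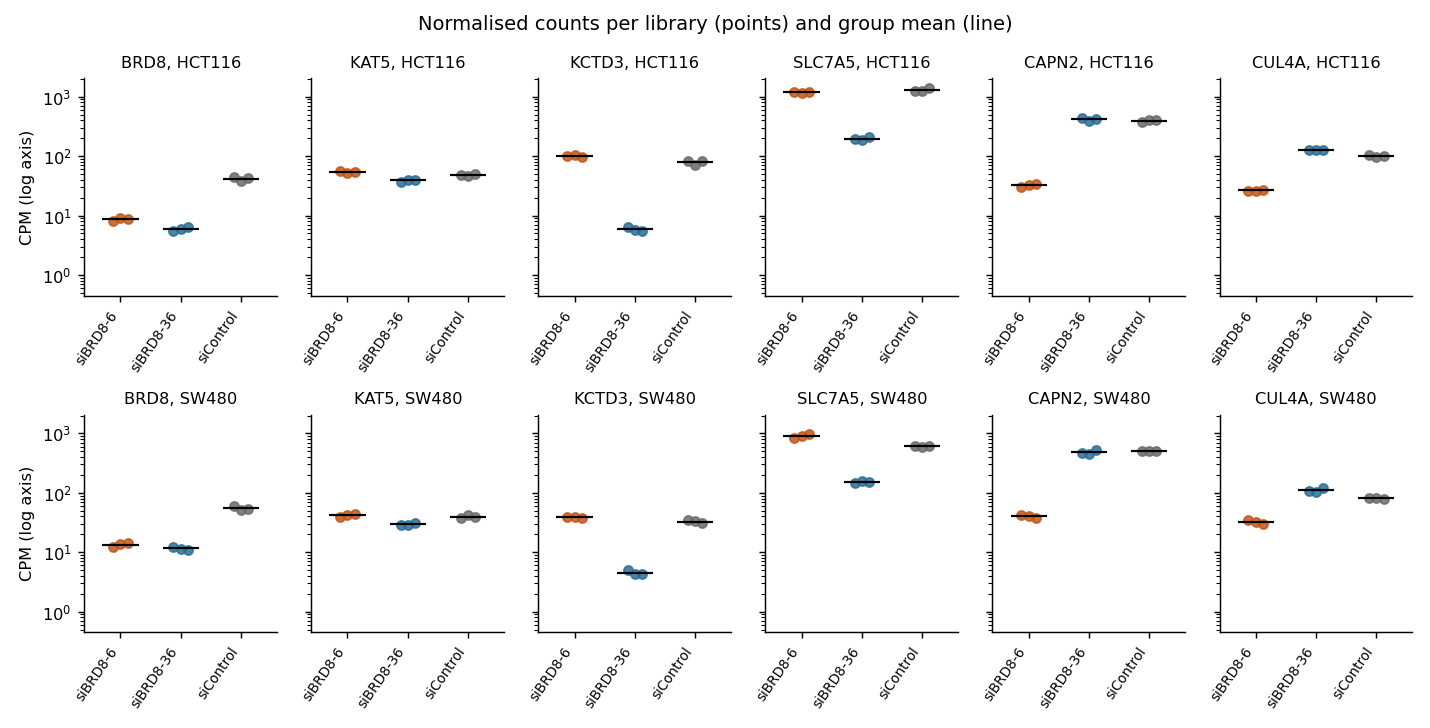
Normalised counts-per-million on a log axis for 6 genes in each line, 3 libraries a group as points and the group mean as a line. BRD8 is reduced by both siRNAs, KCTD3 and SLC7A5 are low in the siBRD8-36 libraries alone of those drawn, and CAPN2 and CUL4A are low in the siBRD8-6 libraries alone. Orange is siBRD8-6, blue siBRD8-36 and grey control.

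More than 1 in 2 of the genes tested differed between the 2 siRNAs in either line. In HCT116, 9028 of 15919 genes passed an adjusted p of 0.05, which is 56.7% of those tested, with 4507 higher (28.3%) and 4521 lower (28.4%) with siBRD8-6. In SW480, 8071 of 15277 genes passed (52.8%), with 4120 higher (27%) and 3951 lower (25.9%). The difference between the siRNAs was called about as often as the difference of either siRNA from control: 50.5% for siBRD8-6 and 58.3% for siBRD8-36 in HCT116, and 52.1% for siBRD8-6 and 56.8% for siBRD8-36 in SW480. Folds of 2 or more were fewer, with 1913 genes in HCT116 and 1682 in SW480. With siBRD8-6, 1115 genes in HCT116 and 1347 in SW480 passed the test with at least a 2-fold difference from control, and with siBRD8-36, 2128 and 1965.

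Of the 13888 genes tested in both lines, 4551 (32.8%) were recurrent. They comprised 2368 genes higher with siBRD8-6 in both lines (17.1%) and 2183 lower in both (15.7%), against 739 called in both lines with opposite signs (5.32%). The recurrent genes were 54.5% of the 8349 HCT116 calls and 61.2% of the 7440 SW480 calls among genes tested in both. At 2-fold or more in both lines there were 352 higher (2.53%) and 188 lower genes (1.35%). Across the 13888 genes the log2 differences of the 2 lines had a Pearson correlation of 0.515 and a Spearman correlation of 0.534, given as a description since genes are not replicates. Of the recurrent genes, 4346 (95.5%) were protein coding. The share over all genes tested was not counted, so this is not read as a trait of the recurrent genes. The 3 siBRD8-6 libraries did not overlap the 3 siBRD8-36 libraries in 98.7% of recurrent genes in HCT116 and 95.0% in SW480, against 64.1% and 56.8% of all genes tested. The calls were made on these same libraries, so the higher share among recurrent genes follows largely from their choice and adds no support. In a single fit over both lines, the siRNA difference itself differed between HCT116 and SW480 for 5540 of 17411 genes (31.8%). Of the 4551 recurrent genes, 1611 were among them, a share not far above that over all genes.

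**Figure D2:**
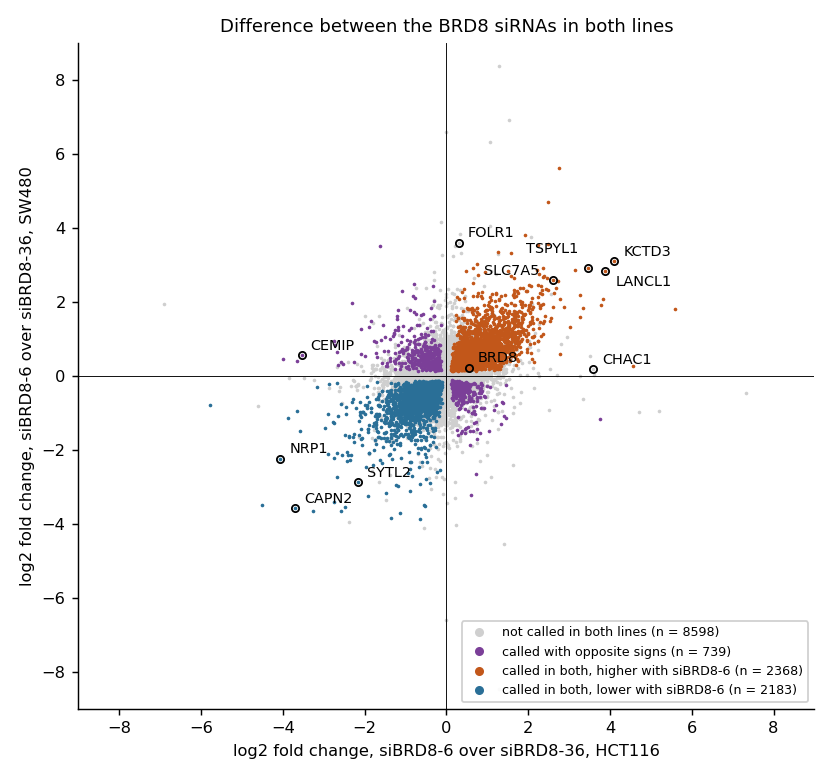
Log2 fold change of siBRD8-6 over siBRD8-36 in HCT116 (x axis) and SW480 (y axis) for each gene tested in both lines, coloured by whether it was called in both. The 4551 recurrent genes fill the upper right and lower left parts, 739 genes lie in the other parts, and KCTD3 and CAPN2 stand at the far ends of the diagonal.

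Set against the control libraries, which both siRNAs share, the recurrent genes fell into several classes, where alone means that the other siRNA was not called against control. Of the 2368 higher genes, 330 in HCT116 and 461 in SW480 differed from control with siBRD8-6 alone, 775 (32.7%) and 750 (31.7%) with siBRD8-36 alone, and 707 (29.9%) and 712 (30.1%) with both in one direction but by unequal amounts. A further 488 and 323 were called on opposite sides of control. Of the 2183 lower genes, 447 and 534 differed from control with siBRD8-6 alone, 625 and 698 with siBRD8-36 alone, 582 and 502 with both in one direction, and 433 and 295 on opposite sides. The higher genes on which both siRNAs were called in one direction were partly different genes in each line, with 375 (15.8%) so called in both.

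Genes that were low with siBRD8-36 and near control with siBRD8-6 led the recurrent higher genes. KCTD3, a protein of the potassium-channel tetramerisation domain family (chromosome 1), had 101, 105 and 97.5 CPM with siBRD8-6, 6.39, 5.71 and 5.50 CPM with siBRD8-36 and 81.3, 72.3 and 83.6 CPM with control in HCT116. In SW480 it had 39.4, 39.7 and 37.8 CPM with siBRD8-6, 4.94, 4.33 and 4.29 CPM with siBRD8-36 and 34.3, 33.6 and 30.5 CPM with control. Every siBRD8-36 library was far below every other library of its line shown here, and the log2 differences were 4.11 ± 0.0797 (adjusted p = 1.39e-17) and 3.10 ± 0.105 (adjusted p = 2.7e-19).

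TSPYL1, of the nucleosome assembly protein family, had 193, 177 and 181 CPM with siBRD8-6, 16.7, 16.0 and 17.4 CPM with siBRD8-36 and 132, 140 and 143 CPM with control in HCT116. SW480 cells had 66.0, 62.9 and 65.5 CPM with siBRD8-6, 8.73, 8.10 and 8.78 CPM with siBRD8-36 and 42.7, 43.6 and 43.3 CPM with control. The siBRD8-6 libraries were above control and the siBRD8-36 libraries below it (log2 differences 3.46 and 2.92). SNAPIN, a SNARE-associated protein of the lysosome-positioning complexes, had 27.4, 27.5 and 28.5 CPM with siBRD8-6, 4.08, 3.09 and 2.33 CPM with siBRD8-36 and 29.8, 34.3 and 32.5 CPM with control in HCT116. The SW480 values were 33.3, 31.4 and 32.5 CPM with siBRD8-6, 5.04, 3.89 and 4.29 CPM with siBRD8-36 and 36.9, 32.5 and 34.2 CPM with control. Its siBRD8-36 libraries alone stood apart (3.14 and 2.87). LANCL1, a glutathione-binding LanC-like protein, averaged 99.9 ± 5.51 CPM with siBRD8-6, 6.84 ± 1.35 CPM with siBRD8-36 and 104 ± 8.10 CPM with control in HCT116 (SD, n = 3 each), and 92.3 ± 6.65 with siBRD8-6, 13.2 ± 3.59 with siBRD8-36 and 64.3 ± 2.68 with control in SW480.

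SLC7A5, the light chain of the leucine transporter LAT1 and a target of ATF4, had 1211, 1141 and 1206 CPM with siBRD8-6, 191, 187 and 206 CPM with siBRD8-36 and 1232, 1225 and 1384 CPM with control in HCT116. SW480 cells had 841, 898 and 973 CPM with siBRD8-6, 148, 156 and 150 CPM with siBRD8-36 and 618, 597 and 616 CPM with control. The differences were 2.61 ± 0.0715 (adjusted p = 1.25e-15) and 2.58 ± 0.0612 (adjusted p = 2.19e-22), with the siBRD8-36 libraries far below control in both lines. The siBRD8-6 libraries lay a little below control in HCT116 and above it in SW480.

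The other 7 of these 12 genes had log2 differences of 2.31 to 2.73 in the 2 lines. They were PSMD10 (gankyrin, a proteasome assembly chaperone), NSF (the ATPase that takes SNARE complexes apart), JDP2 (a Jun dimerisation protein), ARMT1 (a carboxyl methyltransferase), GOLGA4 (a golgin of the trans-Golgi), FAM234B and RTN3 (a reticulon of the endoplasmic reticulum). PSMD10 averaged 55.2 CPM with siBRD8-6, 8.33 with siBRD8-36 and 58.4 with control in HCT116, and 93.7 with siBRD8-6, 16.0 with siBRD8-36 and 101 with control in SW480. NSF averaged 96.8 CPM with siBRD8-6, 17.4 with siBRD8-36 and 91.9 with control in HCT116 and 37.6 with siBRD8-6, 5.95 with siBRD8-36 and 29 with control in SW480. RTN3 averaged 153 CPM with siBRD8-6, 30.2 with siBRD8-36 and 186 with control in HCT116 and 212 with siBRD8-6, 42.9 with siBRD8-36 and 228 with control in SW480. JDP2 was the one gene of the 12 that siBRD8-6 also left well below control in HCT116, at 23.3 CPM against 3.62 with siBRD8-36 and 46.4 with control, while in SW480 it averaged 53.6 with siBRD8-6, 10.3 with siBRD8-36 and 41.5 with control.

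Genes that were low with siBRD8-6 led the recurrent lower genes. CAPN2, the catalytic subunit of m-calpain, a calcium-dependent protease (chromosome 1), had 29.7, 32.4 and 34.0 CPM with siBRD8-6, 433, 386 and 429 CPM with siBRD8-36 and 379, 401 and 400 CPM with control in HCT116. In SW480 it had 42.7, 40.2 and 38.2 CPM with siBRD8-6, 472, 455 and 522 CPM with siBRD8-36 and 507, 497 and 502 CPM with control. The siBRD8-36 and control libraries lay together and the siBRD8-6 libraries far below, with differences of −3.70 ± 0.0625 (adjusted p = 4.61e-18) and −3.59 ± 0.0655 (adjusted p = 8.53e-25).

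CUL4A, the scaffold of a cullin-RING ubiquitin ligase, had 26.3, 26.3 and 27.4 CPM with siBRD8-6, 128, 127 and 127 CPM with siBRD8-36 and 104, 97.4 and 98.6 CPM with control in HCT116. The SW480 values were 34.9, 31.8 and 29.6 CPM with siBRD8-6, 106, 104 and 119 CPM with siBRD8-36 and 81.3, 82.6 and 77.2 CPM with control. Here the siBRD8-36 libraries stood a little above control and the siBRD8-6 libraries well below (−2.26 and −1.78). GNG5, a G-protein gamma subunit, averaged 15.2 ± 1.59 CPM with siBRD8-6, 89.0 ± 3.02 CPM with siBRD8-36 and 76.2 ± 5.23 CPM with control in HCT116, and 17.7 ± 0.985 with siBRD8-6, 77.9 ± 6.97 with siBRD8-36 and 90.9 ± 1.64 with control in SW480 (SD, n = 3 each). RFK, riboflavin kinase, averaged 14.1 CPM with siBRD8-6, 75.7 with siBRD8-36 and 56.0 with control in HCT116 and 11.2 with siBRD8-6, 54.2 with siBRD8-36 and 63.5 with control in SW480. FAM3C, a secreted cytokine-like protein, averaged 119 CPM with siBRD8-6, 892 with siBRD8-36 and 863 with control in HCT116 and 58.8 with siBRD8-6, 256 with siBRD8-36 and 180 with control in SW480.

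PRRG4 (a transmembrane Gla protein), NRP1 and SYTL2 were below control with siBRD8-6 and above it with siBRD8-36, all called by the test, in both lines for PRRG4 and NRP1 and in HCT116 for SYTL2. PRRG4 had 4.6, 4.20 and 4.18 CPM with siBRD8-6, 26.3, 29.1 and 27.3 CPM with siBRD8-36 and 16.0, 14.7 and 13.2 CPM with control in HCT116, with a difference of −2.67. In SW480 PRRG4 had 2.28, 1.00 and 2.7 CPM with siBRD8-6, 12, 14.5 and 14.5 CPM with siBRD8-36 and 7.96, 7.03 and 7.62 CPM with control (−2.73), again with control between the siRNAs. NRP1 encodes neuropilin-1, a co-receptor for semaphorins and VEGF, and had 1.61, 2.04 and 2.39 CPM with siBRD8-6, 36.7, 31.6 and 32.7 CPM with siBRD8-36 and 7.04, 7.68 and 9.05 CPM with control in HCT116. In SW480 NRP1 had 114, 110 and 114 CPM with siBRD8-6, 509, 510 and 582 CPM with siBRD8-36 and 300, 295 and 303 CPM with control. The control libraries lay between the siRNAs in both lines (−4.06 and −2.24). SYTL2, a Rab27 effector in vesicle transport, had 9.13, 7.79 and 7.92 CPM with siBRD8-6, 55.9, 59.7 and 66.1 CPM with siBRD8-36 and 8.10, 8.71 and 7.02 CPM with control in SW480, where siBRD8-36 was the siRNA away from control. In HCT116 SYTL2 averaged 5.32 CPM with siBRD8-6, 23.8 CPM with siBRD8-36 and 8.44 CPM with control.

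The remaining 4 of the 12 lower genes were MYO1D (a class I myosin), FBXO30 (an F-box protein), EMC4 (a subunit of the endoplasmic reticulum membrane complex) and VDAC1 (the outer mitochondrial membrane channel), with log2 differences of −2.44 to −1.78. VDAC1 averaged 119 CPM with siBRD8-6, 410 with siBRD8-36 and 353 with control in HCT116, and 142 with siBRD8-6, 569 with siBRD8-36 and 486 with control in SW480. The siBRD8-6 and siBRD8-36 libraries did not overlap in either line in any of the 24 genes taken by rank, which the choice of large differences makes likely.

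The 3′ UTRs of the recurrent genes were then described, as sequences that the calls had not used. The words, however, were ranked on the same siRNA differences that gave the calls. High shares of holders among called and recurrent genes thus follow in part from the ranking, above all in HCT116, whose ranking gave the words. For each of 14255 7-base words found in at least 200 of the 11874 genes with a 3′ UTR tested in both lines, a linear model gave the log2 siRNA difference of genes that hold the word over those that do not, with UTR length and GC content as further terms. GTCTTAC ranked first in both lines among words of genes higher with siBRD8-6, at 0.446 in HCT116 and 0.451 in SW480, and words that overlap it ranked next. It was held by 885 genes, 7.45% of all. The median difference of those genes was 0.39 in HCT116 and 0.36 in SW480, against −0.02 and −0.02 in genes without the word. Of the holders, 59.5% were called higher in HCT116 and 56.9% in SW480, against 30.6% and 27.4% of the rest.

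Relative to control, holders of GTCTTAC had medians of −0.01 and 0.04 with siBRD8-6, and −0.41 and −0.33 with siBRD8-36. The word was held by 18.3% of the recurrent higher genes (411 of 2244 with a 3′ UTR), and by 41.7% of those at least 2-fold higher in both lines (129 of 309). Of the 12 higher genes taken by rank, 8 held it. The 3′ UTRs of the recurrent higher genes were also longer, with a median of 1863.5 bases against 1391.5 for all. The difference was larger where the UTR was short: 1.14 and 1.04 in the 17 holders with 50 to under 500 bases, against 0.29 and 0.23 in the 365 with 4000 bases or more. The 73 genes with 2 or more copies had medians of 0.55 and 0.48, and the 305 genes in which an A follows the word had 0.48 and 0.46, against 0.35 and 0.35 for the 580 without. The scan takes genes as its points, and genes are not replicates, so no p is given.

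**Figure D3:**
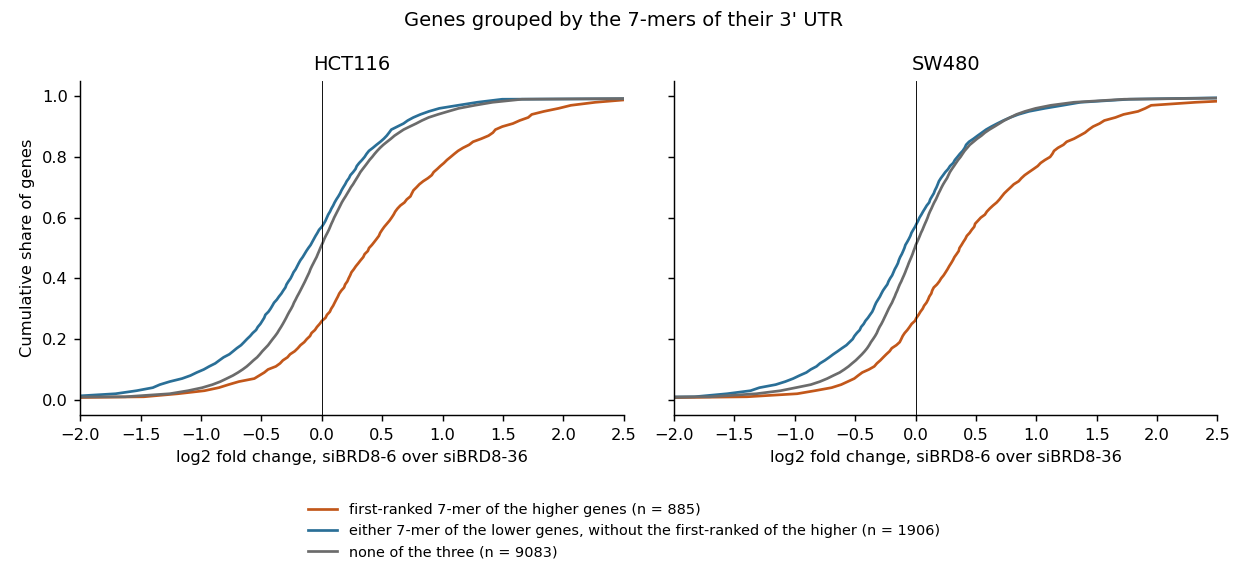
Cumulative share of genes (y axis) by log2 fold change of siBRD8-6 over siBRD8-36 (x axis) in each line, for genes holding GTCTTAC, genes holding CAGCATA or CCATCAT without it, and genes holding none of them. The curve of the 885 GTCTTAC genes lies to the right of the others in both lines, with medians of 0.39 and 0.36, and the curve of the lower words lies to the left by less.

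Within single libraries the GTCTTAC pattern was found in the siBRD8-36 libraries of both lines. The median level of genes with the word minus that of genes without, each gene centred on its line, was −0.28, −0.34 and −0.35 (log2) in the siBRD8-36 libraries of HCT116 and −0.33, −0.34 and −0.27 in those of SW480. Every other library of the series, from siBRD8-6, siTIP60-2, siTIP60-11 and control groups, had a value between 0.016 and 0.140. All 6 siBRD8-36 libraries were thus below all 24 others. Because each gene is centred on its line, low siBRD8-36 values raise those of the other libraries, so their side of 0 is not a result. The word was ranked on the difference between the BRD8 siRNAs, so a gap between these groups in HCT116 was likely beforehand.

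The words of the genes lower with siBRD8-6 had smaller values. CAGCATA ranked first in HCT116 (−0.206) and 3 in SW480 (−0.141), and was held by 1160 genes (9.77%), while CCATCAT ranked second in both lines (−0.171 and −0.140) and was held by 1344 genes (11.3%). One or both words were held by 26.5% of the recurrent lower genes (552 of 2081) and by 43.3% of those at least 2-fold lower in both lines (74 of 171), against 18.9% of all genes. Of the 12 lower genes taken by rank 8 held one of them, and 3 (CAPN2, EMC4 and FBXO30) held GTCTTAC. Over all 1160 CAGCATA genes the median siRNA differences were −0.08 in HCT116 and −0.06 in SW480, against 0.00 and 0.00 in genes without the word. They were −1.01 and −0.55 in the 19 of these genes with a UTR of 50 to under 500 bases. In the 477 with 4000 bases or more they were positive, at 0.09 and 0.05, against 0.11 and 0.09 in genes with such UTRs and without the word. Per library, CAGCATA genes stood at −0.08, −0.11 and −0.08 with siBRD8-6 and 0.02, −0.06 and −0.05 with siBRD8-36 in HCT116, and at −0.04, −0.06 and −0.11 with siBRD8-6 and −0.08, −0.04 and 0.03 with siBRD8-36 in SW480. The groups overlapped in SW480. Without the UTR length and GC terms the SW480 rank of CAGCATA dropped to 218 and that of CCATCAT to 37, while both kept their HCT116 ranks and GTCTTAC ranked first in both lines. None of 2370 mature human miRNAs in the RefSeq table had a seed that pairs with any of the 3 words.

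**Figure D4:**
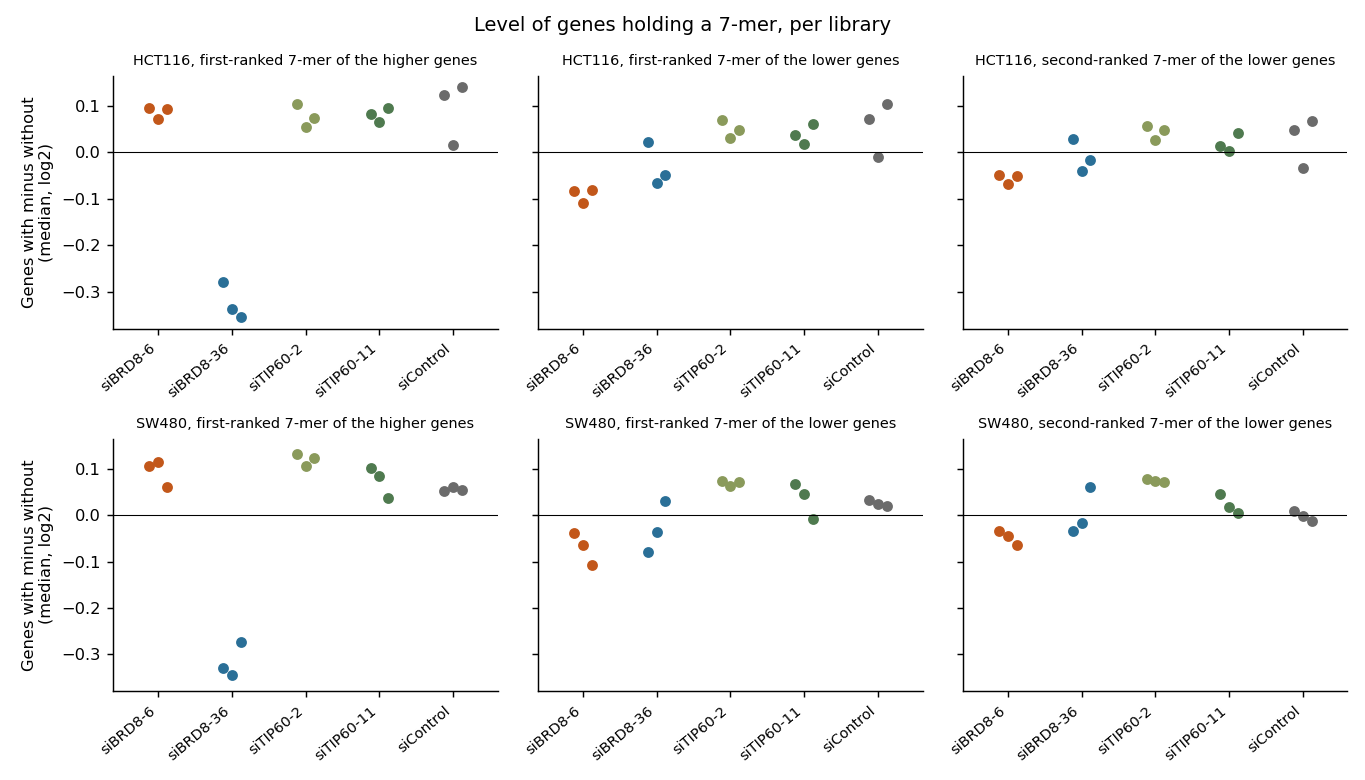
Median log2 level of genes holding a word minus that of genes without it, per library, for GTCTTAC (left), CAGCATA (middle) and CCATCAT (right) in HCT116 (top) and SW480 (bottom). For GTCTTAC the 6 siBRD8-36 libraries lie between −0.35 and −0.27, below all others, while for the other words the groups differ by little.

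Genes of the cell division cycle were higher with siBRD8-6 than with siBRD8-36 in both lines. Of 40 genes that act in G2 and mitosis, 37 were higher in HCT116 and 39 in SW480, none was lower in either, and 37 were recurrent. The median log2 difference was 1.28 in HCT116 and 0.77 in SW480, beside 0.00 over all genes tested. As background for this list and those of replication and repair, 28.3% of all genes were higher in HCT116 and 27% in SW480. Recurrent and higher were 17.1% of the genes tested in both lines. ANLN (anillin, of the cytokinetic ring; 2.62 and 2.23), CDK1 (the mitotic kinase; 2.00 and 1.77), AURKA (a spindle kinase; 1.74 and 1.44) and KIF11 (a spindle motor; 1.5 and 1.34) led. Against control, siBRD8-6 gave medians of −0.25 in HCT116 and −0.73 in SW480, and siBRD8-36 gave −1.65 and −1.52, so both siRNAs left the list below control. The word GTCTTAC was held by 1 of the 40 genes (2.5%).

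DNA replication and repair genes had the same order of groups. Of 14 subunits and loaders of the origin-licensing (pre-replication) complex, 11 were higher in HCT116 and 11 in SW480. MCM2, a subunit of the replicative helicase, differed most (2.87 ± 0.0565 and 1.86 ± 0.0777), followed by CDC6 (1.51 and 1.47), the helicase loader, and the origin recognition subunits ORC6 (2.04 and 1.46) and ORC1 (1.10 and 1.10). Of the 14, 3 held GTCTTAC, namely MCM2, CDC6 and MCM4, and MCM4 was not higher in either line. The other helicase subunits MCM3 (0.86 and 0.42), MCM5 (0.60 and 0.49), MCM6 (0.54 and 0.18) and MCM7 (1.17 and 0.52) were higher by less, MCM4 was lower in SW480 (−0.39) and had −0.03 in HCT116, and ORC5 was lower in both lines (−0.43 and −0.46).

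Of 33 replication fork genes, none of which held GTCTTAC, 26 were higher and 1 lower in HCT116, 23 higher and 3 lower in SW480, and 22 recurrent and higher. MCM10 (1.60 and 1.06), CLSPN (claspin; 1.49 and 1.25), CDC45 (0.94 and 0.99) and DNA2 (1.03 and 0.97) led, and PCNA, the sliding clamp, was lower in HCT116 (−1.05) with a value of −0.10 in SW480. Of 26 repair genes acting in homologous recombination or Fanconi anaemia complexes, 24 were higher in HCT116 and 20 in SW480, with none lower. RAD54L (1.60 and 0.98), EXO1 (1.35 and 1.00), RAD51AP1 (0.95 and 1.07) and EME1 (0.90 and 0.86) led, and the SW480 count was 12 with limma on TPM, where RAD54L (0.40, adjusted p = 0.0852) and EME1 (0.47, adjusted p = 0.116) were not called. Of 22 regulators of G1 and S phase, 20 were higher in HCT116 and 15 in SW480, led by the repressor E2F7 (2.42 and 1.61), CCNE2 (cyclin E2; 1.5 and 1.18) and UHRF1 (1.34 and 1.18). The enzymes of nucleotide synthesis were mixed, with 8 of 14 higher and 3 lower in HCT116 and 7 higher and 4 lower in SW480. RRM2 (ribonucleotide reductase; 1.86 and 1.26) and TK1 (thymidine kinase; 1.09 and 1.00) were recurrent and higher, while PPAT of purine synthesis (−0.91 and −0.72) was lower.

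In these bulk libraries, fewer cells in a phase of the cycle and less of the mRNA per cell cannot be told apart. Medians against control for the pre-replication, fork and repair lists were −0.43, −0.28 and −0.44 with siBRD8-6 and −1.40, −1.10 and −1.61 with siBRD8-36 in HCT116. In SW480 they were −0.41, −0.42 and −0.62 with siBRD8-6 and −0.95, −0.80 and −1.10 with siBRD8-36. Each of these lists was below control with both siRNAs and further below it with siBRD8-36.

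**Figure D5:**
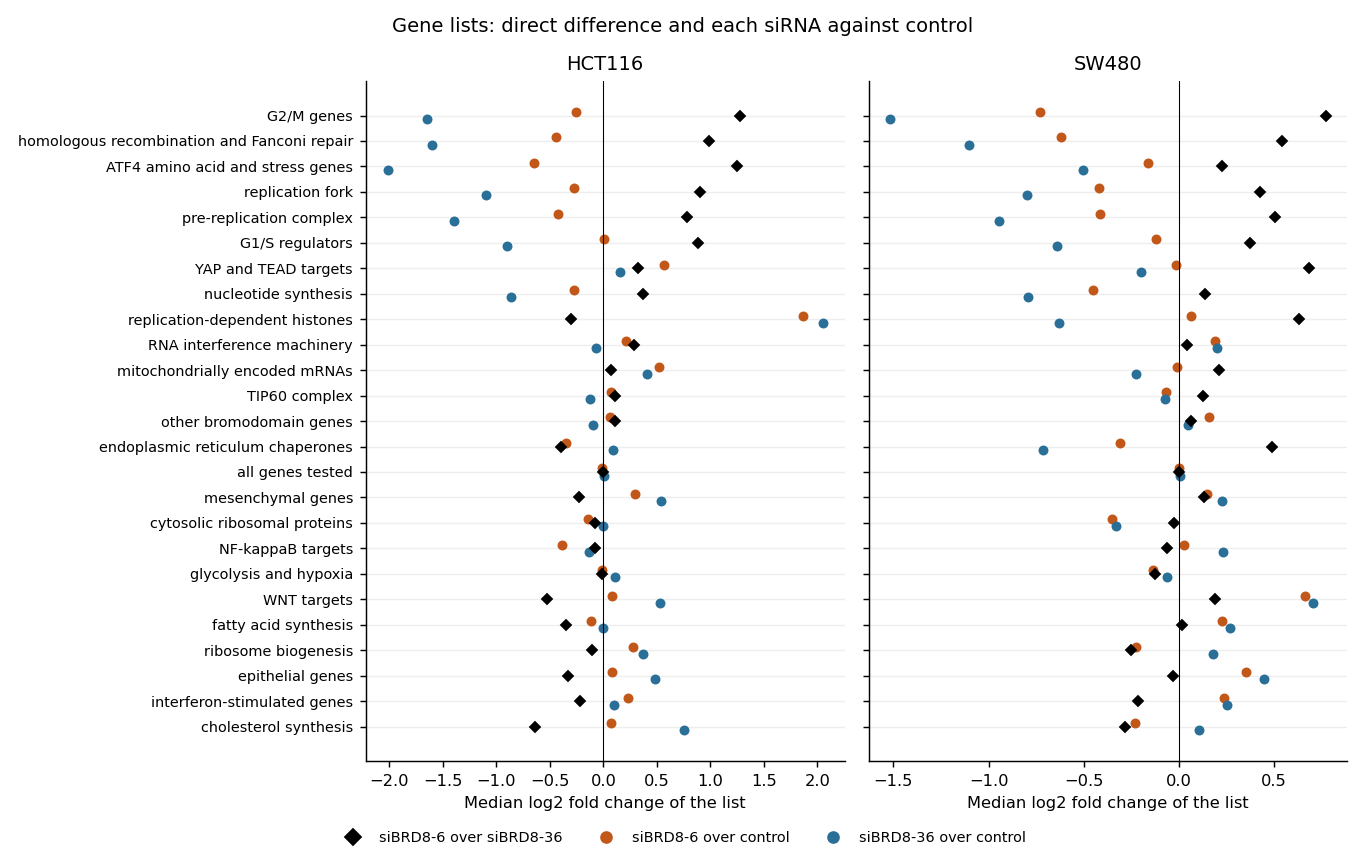
Median log2 fold change of each gene list in HCT116 (left) and SW480 (right), for siBRD8-6 over siBRD8-36 (diamonds), siBRD8-6 over control and siBRD8-36 over control (circles); the 2 control comparisons share their control libraries. Division and repair lists lie right of 0 for the direct difference in both lines (G2/M genes 1.28 and 0.77), while ER chaperones and WNT targets lie on different sides in the 2 lines.

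Of 25 genes of cholesterol synthesis, 19 were lower with siBRD8-6 and 2 higher in HCT116, 15 lower and 4 higher in SW480, and 14 were recurrent and lower, with medians of −0.64 and −0.28. Shares over all genes were 28.4% lower in HCT116, 25.9% lower in SW480 and 15.7% recurrent and lower. HMGCS1 (−1.68 and −1.09), MVD (−1.47 and −1.51) and FDFT1 (−1.70 and −1.05), enzymes of the mevalonate and squalene steps, led. ACAT2, an acetyl-CoA acetyltransferase (0.65 and 1.67), was higher in both lines. Against control, siBRD8-6 gave medians of 0.07 and −0.23 in HCT116 and SW480, and siBRD8-36 gave 0.75 and 0.11.

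Of 16 YAP and TEAD target genes, read-outs of Hippo signalling, 8 were higher with siBRD8-6 and 1 lower in HCT116, 11 were higher and 2 lower in SW480, and 8 were recurrent and higher. Over all genes tested, 28.3% were higher in HCT116, 27% in SW480 and 17.1% recurrent and higher. AMOTL2 (1.32 and 1.74), AJUBA (1.15 and 1.53) and CCN1 (0.98 and 1.78) led, while CCN2 had opposite calls (−0.81 and 2.15). ANKRD1 averaged 278.6 CPM with siBRD8-6, 80.0 CPM with siBRD8-36 and 404 CPM with control in SW480, a difference of 1.80. In HCT116 it was near the limit of detection, with 0.239, 0.420 and 0.418 CPM with siBRD8-6 and no counts in any siBRD8-36 library, so its fold there is not given.

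Of 36 ribosome biogenesis factors, 15 were lower and 8 higher with siBRD8-6 in HCT116 and 23 lower and 5 higher in SW480, beside 28.4% lower and 28.3% higher over all genes in HCT116 and 25.9% lower and 27% higher in SW480. PNO1 (−0.87 and −0.70), RRP9 (−0.62 and −0.56) and NOP14 (−0.46 and −0.51), all of small-subunit assembly, were lower in both lines, and the helicase DDX10 (1.32 and 0.48) was higher. Of 50 cytosolic ribosomal protein genes, 9 were lower and 4 higher in HCT116 and 3 lower and 3 higher in SW480, smaller shares than over all genes. The counts of lower genes were 20 without HCT116 control replicate 2 and 24 without SW480 siBRD8-36 replicate 3, the libraries with the deviating ribosomal protein share.

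For several lists the siRNA difference was unequal in the lines, and for these the difference between the lines was tested gene by gene in the joint fit. Amino acid and stress genes controlled by ATF4 were higher with siBRD8-6 in HCT116, with 25 of 29 higher and 3 lower (median 1.25). In SW480 15 of 30 were higher and 5 lower (median 0.23), and the joint fit called 22 more positive in HCT116 and 2 more negative. Over all genes tested, 28.3% were higher and 28.4% lower in HCT116, and 27% higher and 25.9% lower in SW480. The joint fit called 18.6% of all genes positive and 13.2% negative. Besides SLC7A5, the serine synthesis enzyme PHGDH (1.43 and 1.26), the cystine transporter SLC7A11 (2.25 and 0.94) and DDIT4 (2.28 and 1.46) were recurrent, and CBS, a transsulfuration enzyme, was lower in HCT116 (−3.86) with −0.07 in SW480. Both siRNAs were below control in HCT116, at medians of −0.65 with siBRD8-6 and −2.02 with siBRD8-36.

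Chaperones of the endoplasmic reticulum went in different directions in the 2 lines. In HCT116 12 of 16 were lower with siBRD8-6 and 3 higher (median −0.40), in SW480 14 were higher and none lower (median 0.49), and the joint fit called 13 more negative in HCT116 and 1 more positive. HSPA5 (BiP) had −0.17 and 0.63, HSP90B1 −0.53 and 0.54, MANF −0.94 and 0.59 and CALR −0.43 and 0.51 in HCT116 and SW480. XBP1 (0.34 and 0.45), SEL1L (0.47 and 1.14) and HERPUD1 (0.38 and 0.15) were higher in both. The HCT116 call of SEL1L was lost with limma on TPM (adjusted p = 0.0966). The SW480 call of HERPUD1 was lost with limma on TPM, with no filter on low counts, in a fit of the 6 BRD8 siRNA libraries alone, and without siBRD8-36 replicate 3 (0.11) or siBRD8-6 replicate 1 (0.12), at adjusted p of 0.0735 to 0.0999. WNT target genes had a like split, with 12 of 15 lower and 1 higher in HCT116 and 8 of 19 lower and 10 higher in SW480. Beside both lists, the shares over all genes were 28.4% lower and 28.3% higher in HCT116, and 25.9% lower and 27% higher in SW480. AXIN2 (−0.77 and 0.86), a feedback inhibitor of the pathway, NOTUM (−1.42 and 0.68) and SP5 (−0.92 and 0.40) had opposite calls, while DKK1 (−0.69 and −0.90) and RNF43 (−0.30 and −0.46) were lower in both, the HCT116 call of RNF43 being lost with limma on TPM (adjusted p = 0.134).

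Genes of RNA interference and innate sensing of RNA were examined because each siRNA is an RNA duplex. Of 13 genes of the interference machinery, 8 were higher and 2 lower in HCT116 and 3 higher and 2 lower in SW480, where the share over all genes was 27% higher and 25.9% lower (28.3% and 28.4% in HCT116). DICER1, which processes small RNA precursors, was higher in both (1.58 and 0.53), as were its partners TARBP2 (0.28 and 0.40) and PRKRA (0.23 and 0.41), and AGO2 had 0.88 in HCT116 and 0.07 in SW480. TNRC6A, a partner of the Argonaute proteins, was lower in both lines (−0.50 and −0.32), a call lost in SW480 with limma on TPM (−0.17, adjusted p = 0.495). Interferon-stimulated genes showed no common direction, with 9 higher and 15 lower of 34 in HCT116 and 9 higher and 12 lower of 33 in SW480. IFIT2 (0.78 and 1.23) and IFIT3 (1.49 and 0.97) were higher, and OAS3 (−0.66 and −1.14) was lower, in both lines. The OAS3 calls were lost with limma on TPM, at −0.40 (adjusted p = 0.0646) in HCT116 and −0.35 (adjusted p = 0.195) in SW480. Of the other bromodomain genes, 14 of 29 were higher and 8 lower in HCT116 and 12 of 28 higher and 7 lower in SW480. Among them ATAD2 (1.70 and 1.14) and BRD3 (0.81 and 0.90) were higher in both lines and ATAD2B was lower (−0.55 and −0.51), a call lost in both lines with limma on TPM (−0.12, adjusted p = 0.622, and −0.25, adjusted p = 0.355).

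Of the epithelial genes, 11 of 17 were lower with siBRD8-6 and 1 higher in HCT116, against 5 lower and 3 higher of 16 in SW480. The shares over all genes were 28.4% lower and 28.3% higher in HCT116, and 25.9% lower and 27% higher in SW480. EPCAM (−0.57 and −0.19), ESRP1, a splicing regulator of epithelial cells (−0.42 and −0.46), and CLDN7, a claudin (−0.32 and −1.13), were lower in both lines. The fibroblast marker COL1A1 was lower with siBRD8-6 in HCT116 (−0.88) and higher in SW480 (0.94), with the other defining markers COL1A2, COL3A1, DCN and LUM under the filter in both lines. CD68 was lower in both lines (−0.94 and −2.62), at means of 0.673 CPM with siBRD8-6, 4.25 CPM with siBRD8-36 and 0.149 CPM with control in SW480, and PTPRC and CD3E were under the filter. What part these markers have in the results was not tested.

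The remaining lists are given by their counts of genes higher and lower with siBRD8-6. Beside them, 28.3% of all genes tested were higher and 28.4% lower in HCT116, and 27% higher and 25.9% lower in SW480. Several of the counts lay near these shares. Genes of fatty acid synthesis counted 3 higher and 6 lower of 10 in HCT116 and 4 higher and 4 lower of 10 in SW480. NF-kappaB target genes counted 4 higher and 6 lower of 15 in HCT116 and 3 higher and 5 lower of 12 in SW480. Genes of glycolysis and hypoxia counted 12 higher and 10 lower of 25 in HCT116 and 7 higher and 12 lower of 24 in SW480, and mesenchymal genes 2 higher and 6 lower of 13 in HCT116 and 6 higher and 5 lower of 14 in SW480. Replication-dependent histone genes counted 3 higher and 4 lower of 8 tested in HCT116 and 7 higher and none lower of 15 in SW480. Of 13 mRNAs encoded by the mitochondrial genome, 1 was higher and 1 lower in HCT116, and 8 were higher and none lower in SW480.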

How the data were processed

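RNA-seq libraries of 60-base single-end reads were made with a directional kit from 100 ng of total RNA, per the labels' protocols. The submitters' processing notes name Trimmomatic 0.33, STAR 2.7.3a, RSEM 1.3.3 and hg38, while for the annotation release and the strand setting nothing is given in the sources used here, so overlapping antisense genes and near-identical copies are uncertain. The authors deposited RSEM expected counts, which are estimated counts per gene that need not be whole, and TPM values for 60617 genes, of which 58444 had an ID in GENCODE 29 and 34 symbols had several IDs. TPM, as deposited by the authors, served for 1 alternative only, as log2(TPM + 1) in limma.

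Expected counts were rounded to whole numbers. Each line's 15 libraries were fitted together in R 4.3.3 with edgeR 4.0.16 (filterByExpr, TMM scaling, robust quasi-likelihood test), and siBRD8-6 minus siBRD8-36 was tested with Benjamini-Hochberg adjustment over all genes of the line at 0.05. CPM values are TMM-normalised counts-per-million and SE is the log2 fold change over the square root of F. A joint fit of all 30 libraries tested the difference between lines. The alternatives were DESeq2 1.42.0, limma 3.58.1 on TPM, RLE scaling, other filters, a replicate block, the 6 BRD8 siRNA libraries alone and each library left out. The test and the scan of 3′ UTRs were run on simulated data. The simulated counts had far fewer changed genes than were called here, and the simulated scan had a single planted word in independent noise. These runs therefore do not cover differences as wide as those found. The longest 3′ UTR of at least 50 bases per gene came from GENCODE 29 and was scanned in Python 3.11.15.

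Named genes were BRD8 and KAT5, the 12 protein-coding genes in each direction with the largest smaller-of-both-lines size among recurrent genes with a mean count of at least 50 in each line, up to 4 recurrent members of a list by the same size, and 5 genes in each direction by the difference between lines. Some genes and 1 gene list are not reported here. The lists' other members named were chosen after their values were seen. The groups compared, the genes and the lists were chosen with earlier results of these data known.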

Additional observations from a re-analysis of the deposited data

Results flagged for a closer look

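Among called genes, 10 protein-coding genes, 5 in each direction, had the largest differences between the lines in the effect of siBRD8-6 over siBRD8-36, tested in the joint fit of both lines (edgeR quasi-likelihood test, Benjamini-Hochberg adjusted). CHAC1, which degrades glutathione, averaged 54.1 CPM with siBRD8-6, 4.46 with siBRD8-36 and 82.1 with control in HCT116, and 26.5 with siBRD8-6, 23.7 with siBRD8-36 and 25 with control in SW480, a difference between lines of 3.46 on the log2 scale (adjusted p = 1.08e-13). IGF2, a growth factor, averaged 53.3 CPM with siBRD8-6, 29.8 with siBRD8-36 and 45.8 with control in HCT116 and 14.4 with siBRD8-6, 42.4 with siBRD8-36 and 6.27 with control in SW480 (2.43, adjusted p = 4.67e-14). SHANK1 had a value of 2.33, DGAT2, a triglyceride-synthesis enzyme, 2.22, and DHRS2, a dehydrogenase, 2.22. DGAT2 was called in opposite directions in the lines (0.75 in HCT116 and −1.43 in SW480), and SHANK1 was lower with siBRD8-6 in both, by more in SW480.

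On the negative side, CEMIP, a hyaluronan-degrading protein, averaged 2.67 CPM with siBRD8-6, 31.2 with siBRD8-36 and 4.95 with control in HCT116, and 32.6 with siBRD8-6, 22.2 with siBRD8-36 and 7.20 with control in SW480 (−4.04, adjusted p = 1.69e-17). PMEPA1, an inhibitor of TGF-beta signalling, averaged 1.38 CPM with siBRD8-6, 17.5 with siBRD8-36 and 1.86 with control in HCT116 and 209 with siBRD8-6, 158 with siBRD8-36 and 198 with control in SW480 (−4.02, adjusted p = 2.83e-19). FOLR1, a folate receptor, averaged 4.94 CPM with siBRD8-6, 4 with siBRD8-36 and 4.48 with control in HCT116 and 12.6 with siBRD8-6, 1.02 with siBRD8-36 and 2.38 with control in SW480 (−3.25). CORO6, a coronin, had −3.23, and LTBP2, an extracellular matrix protein, had −3.18. CORO6 and LTBP2 were lower with siBRD8-6 in HCT116 and higher in SW480. What these differences between the lines are due to was not tested.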

How the results depend on the processing

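The recurrent count of 4551 stayed within 1.5 times under the DESeq2, RLE, filter and 6-library alternatives. It was 3011 (1369 lower) with limma on TPM, and 1616 (971 higher, 645 lower) when a fold of 1.5 was also asked for, which left 4250 calls in HCT116 (2195 higher, 2055 lower) and 3653 in SW480 (2031 higher, 1622 lower). Leaving out 1 library gave 4206 to 4716 recurrent genes, 2194 to 2443 of them higher and 2012 to 2273 lower, 8297 to 9653 calls in HCT116, 7345 to 8054 in SW480 and 4986 to 5221 between the lines. The deviations of libraries with the same replicate number had correlations of −0.03 to 0.24 in HCT116 and −0.29 to −0.02 in SW480. With 3 libraries a side these values cannot settle whether the numbers pair the libraries. A replicate block gave 4561 recurrent genes. The split of calls between the lines was 58.5% positive with TMM and 49.2% with RLE scaling, with a median of all genes of 0.059 and −0.004. Of 3933 recomputed values of named genes, 3869 kept their side of the threshold and 62 lost the call. Among values called in the main fit, NKD1 in HCT116 (−0.057) and RPL22 in HCT116 (−0.062) changed sign with limma on TPM. Sign changes of values not called in the main fit, such as BRD8 in SW480, were not counted. Without UTR length and GC terms the value of GTCTTAC was 0.482 in HCT116 and 0.482 in SW480, CAGCATA −0.118 and −0.0632, and CCATCAT −0.102 and −0.0811; over UTRs of 500 to 3000 bases they were 0.568 and 0.562, −0.313 and −0.255, and −0.204 and −0.177. The cause was not tested. Depth limits genes of few counts most, above all in SW480.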
